A study of Mus musculus with 9 samples.

Results

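The genes described here encode the transcription factor NRF2, its redox-sensing inhibitor KEAP1 and 8 enzymes that handle peroxides, superoxide, thiols or heme in mouse round spermatids (RS). They were the rows of the count table whose gene name was Nfe2l2, Keap1, Gpx4, Txnrd1, Txnrd3, Prdx4, Prdx6, Hmox1, Sod1 or Gclc. All 10 were found among the 55414 genes listed, and all 10 were among the 25128 genes with at least 10 counts over the 9 libraries, which were the genes tested. RS are the haploid germ cells that follow meiosis. The libraries were labelled as testis RS of WT genotype. According to the methods, the cells were sorted by tdTomato fluorescence and size from adult mice in which Stra8-iCre switches on a CAG-lox-stop-lox-tdTomato reporter in germ cells, so that all groups carried both transgenes. All cells were kept in culture for 24 h with 0.15% DMSO. The vehicle group (libraries 1 to 3) received nothing else, the oxamate group (libraries 4 to 6) 24 mM oxamate, and the third group (libraries 7 to 9) 24 mM oxamate with 0.3 mM octyl-L2HG. Oxamate is a pyruvate analog that inhibits lactate dehydrogenase, the enzyme from which these cells obtain L-2-hydroxyglutarate (L-2HG), and octyl-L2HG is a cell-permeable ester of that metabolite. The comparisons asked which transcripts moved with oxamate and which moved when octyl-L2HG was added to it. Oxamate acts on all forms of lactate dehydrogenase, and the authors do not fully exclude an energy imbalance as a source of some effects. Whether a change went through L-2HG or through another effect of oxamate was not tested. No group analysed here received octyl-L2HG alone.

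NRF2, encoded by Nfe2l2, is a transcription factor that KEAP1 holds in the cytosol and passes to a ubiquitin ligase for degradation. When oxidants or electrophiles modify KEAP1, NRF2 is stabilised and binds antioxidant response elements near genes for glutathione synthesis, thioredoxin reduction and heme breakdown, so that its activity is set largely at the protein level. Post-meiotic germ cells are known for selenoproteins, among them GPX4, which reduces phospholipid hydroperoxides and becomes a structural protein of the sperm midpiece, and TXNRD3, a testis-enriched reductase of thioredoxin and glutathione.

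The libraries held 32339533 to 39888396 counts, of which the 10 genes together took 0.199% to 0.228%. The summed level of 14 RS markers was 112800 to 116900 normalized read counts with vehicle, 107200 to 108500 under oxamate and 101900 to 102900 with oxamate and octyl-L2HG. Of the 14, 4 fell with oxamate (28.6%, against 1.22% of all genes tested) and 6 with octyl-L2HG added (42.9% against 8.06%). The 4 were Tnp1, Tnp2, Prm1 and Prm2, with log2 fold changes of -0.449 (Prm1) to -0.265 (Tnp1) with oxamate. Those of the other 10 markers, none of them called, ran from -0.178 (Tex101) to 0.0699 (Acr). With octyl-L2HG added the same 4, Spaca3 and Catsper3 fell. With both compounds against vehicle 8 fell (57.1% against 10.6%) and 2 rose (Acrv1 and Acr, 14.3% against 7.48%). The 9 spermatocyte markers summed to 22590 to 25560 over all libraries, and 1 of them rose with oxamate (Piwil1, 11.1% against 3.97% of all genes) and 1 with octyl-L2HG added (Sycp2, 11.1% against 3.18%). A mean under 10 was found for 7 of 8 Sertoli cell, 5 of 7 Leydig cell and 4 of 7 macrophage and blood markers. Sertoli cell markers summed to 46.2 to 53.1 with vehicle, 34.65 to 45.7 under oxamate and 34.6 to 48.3 with both compounds, and macrophage and blood markers to 128.8 to 162.1, 112.4 to 123.9 and 116.8 to 140.4, so that both sums were lower under oxamate than in any vehicle library. Leydig cell markers summed to 29.4 to 39.1, 23.0 to 29.5 and 33.4 to 41.2. The 7 spermatogonium markers summed to 241.7 to 259.7 with vehicle and higher in both treated groups, 275.3 to 287.7 under oxamate and 266.2 to 279 with both compounds. Among them Gfra1 was higher in the treated groups (means of 125.6, 161 and 154.1 in the same order), while Uchl1 was lower (49.8, 40.05 and 36.16). Most of the Sertoli cell sum was Clu, at means of 42.53, 32.92 and 36.45. The 5 peritubular myoid markers, 3 of them with a mean under 10, summed to 101.9 to 112.9 under oxamate, above the 89.1 to 97.1 of vehicle and the 82.4 to 98.8 of both compounds. No tested marker of spermatogonia, Sertoli cells, Leydig cells, peritubular myoid cells or macrophages and blood was called in any comparison. The part of any of these marker lists in the results on the 10 genes was not tested. Within groups, libraries differed by a chi-square per degree of freedom of 2.1 to 23.3, so no pair was within counting noise, and oxamate library 4 stood apart from libraries 5 (18.7) and 6 (23.3). Nothing in the labels ties the libraries to separate animals or cultures, so the p-values measure the spread between these libraries. A lower level of a transcript in such bulk samples can be less RNA per cell or fewer cells that hold it, and these cannot be told apart.

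Of the 10 genes, 7 had a window of 300 bases around a RefSeq transcription start (12 windows in all), and Prdx6, Hmox1 and Gclc had none. The core of the antioxidant response element, TGACNNNGC on either strand, was found in 3 of the 12 windows, against 4071 of all 32851 windows (12.4%). The windows that hold the element are shown up to the start site because this is the sequence NRF2 is known to bind, with the element in capitals, written 5′ to 3′ on the strand of the gene in build GRCm38.p6. A match describes the letters only.
Nfe2l2, chr2:75704664-75704913, minus strand: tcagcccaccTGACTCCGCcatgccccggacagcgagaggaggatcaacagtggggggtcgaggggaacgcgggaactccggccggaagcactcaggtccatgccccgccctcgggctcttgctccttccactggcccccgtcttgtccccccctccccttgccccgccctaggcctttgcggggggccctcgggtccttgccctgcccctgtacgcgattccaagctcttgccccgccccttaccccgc
Txnrd1, the second of 3 windows, chr10:82858956-82859205, plus strand: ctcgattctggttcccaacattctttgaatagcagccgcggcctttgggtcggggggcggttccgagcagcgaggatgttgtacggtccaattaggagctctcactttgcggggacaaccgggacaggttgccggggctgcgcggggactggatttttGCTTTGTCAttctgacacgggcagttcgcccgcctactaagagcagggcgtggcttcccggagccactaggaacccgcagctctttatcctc
Sod1, chr16:90220512-90220761, plus strand: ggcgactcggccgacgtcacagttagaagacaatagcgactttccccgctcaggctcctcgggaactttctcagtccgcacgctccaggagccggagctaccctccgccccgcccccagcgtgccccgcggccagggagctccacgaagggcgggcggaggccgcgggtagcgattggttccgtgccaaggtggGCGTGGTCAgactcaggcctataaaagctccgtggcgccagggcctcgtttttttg
The first capital, as printed, lay 240 bases before the Nfe2l2 start, 92 bases before the Txnrd1 start and 56 bases before the Sod1 start. The element reads as TGACNNNGC on the strand of the gene for Nfe2l2 and on the opposite strand for Txnrd1 and Sod1. The letters were not in the windows of Keap1, Gpx4, Txnrd3 and Prdx4.

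Txnrd1 rose with oxamate, Prdx4 fell when octyl-L2HG was added to oxamate, and both genes also differed from vehicle when both compounds were present. With oxamate, 1 of the 10 genes rose past an adjusted p of 0.05 (Txnrd1), where 3.97% of all genes tested rose, and 0 fell, where 1.22% of all genes fell. No gene of the 10 fell at an unadjusted p under 0.05 or with DESeq2 either. With octyl-L2HG added to oxamate, 0 of the 10 rose, where 3.18% of all genes rose, and 1 fell (Prdx4), where 8.06% of all genes fell. At an unadjusted p under 0.05, 0 rose and 4 fell, and DESeq2 called 0 raised and 1 lowered. The share of all genes at an unadjusted p under 0.05 was not taken, so counts at that threshold, here and below, cannot be set against a background. With both compounds against vehicle, 2 rose (Keap1 and Txnrd1), where 7.48% of all genes rose, and 3 fell (Nfe2l2, Prdx4 and Gpx4), where 10.6% of all genes fell. A difference anywhere among the 3 groups was called for 3 of the 10 (Txnrd1, Prdx4 and Keap1), where 19.8% of all genes tested were called. In that test Keap1 lost its call without vehicle library 2 (adjusted p = 0.117), without library 7, 8 or 9 (adjusted p = 0.059, 0.0791 and 0.0594) and with total counts (adjusted p = 0.0504). Nfe2l2 (adjusted p = 0.0521) gained a call without a filter (0.0194), with total counts (0.0263) and without vehicle library 1 (0.0166). Gpx4 (adjusted p = 0.0838) gained one with total counts (0.0162). Calls gained without oxamate library 4 are given below. All calls are by edgeR's quasi-likelihood test, with p-values adjusted after Benjamini and Hochberg over all genes tested, and the comparisons share libraries pairwise.

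The libraries of 2 groups did not overlap for 3 of the 10 genes between oxamate and vehicle (21.3% of all genes), for 4 between both compounds and oxamate (28.8%), and for 7 between both compounds and vehicle (36.5%). The median log2 fold change of the 10 genes was 0.00 with oxamate, -0.07 with octyl-L2HG added and -0.15 with both compounds against vehicle, and that of all genes tested was -0.01, -0.04 and -0.05. For the 10715 genes with a mean normalized read count of at least 100, as 8 of the 10 have, it was 0.01, 0.01 and 0.03. The shares of all genes given here and above include the less expressed ones. The largest fitted change of a called member was 1.30-fold.

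**Figure D1:**
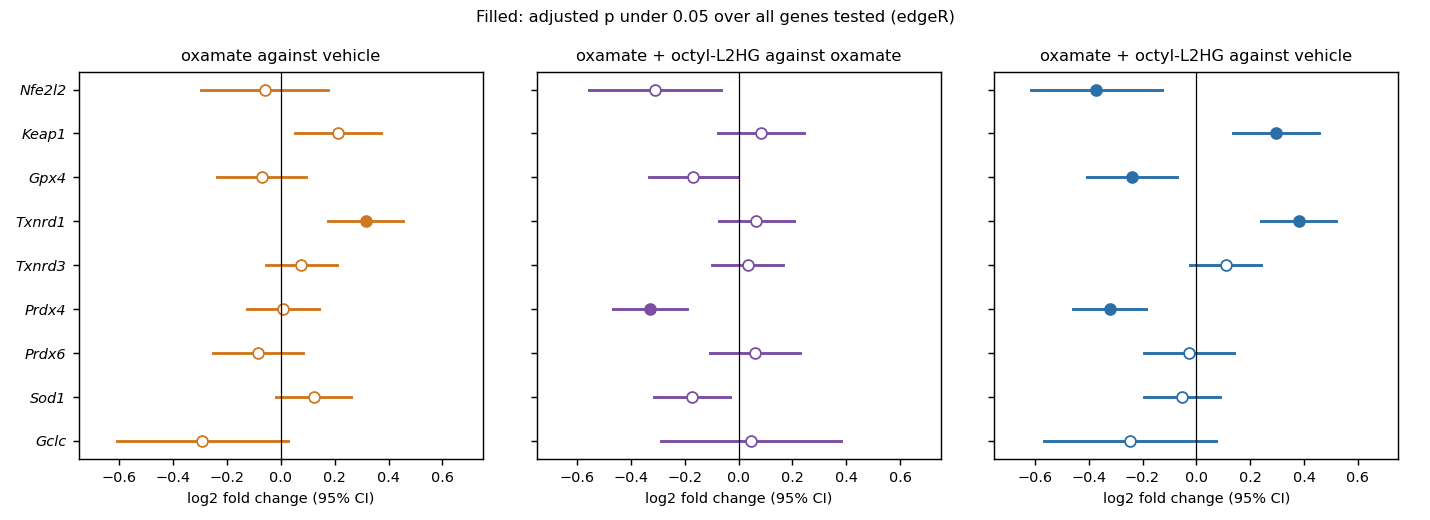
Log2 fold change (x axis) with its 95% confidence interval (bars) for 9 of the 10 genes in the 3 comparisons, from edgeR's fit of all 9 libraries. Hmox1 is left out because its counts were too low. Filled circles passed an adjusted p of 0.05: Txnrd1 with oxamate, Prdx4 with octyl-L2HG added, and Nfe2l2, Keap1, Gpx4, Txnrd1 and Prdx4 with both compounds against vehicle.

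Nfe2l2 and Keap1 moved in opposite directions between vehicle and both compounds. Nfe2l2 had normalized read counts of 405, 470 and 529 with vehicle, 359, 515 and 469 under oxamate, and 366, 347 and 387 with oxamate and octyl-L2HG. All 3 libraries with both compounds were below all 3 vehicle libraries, but oxamate library 4 lay among them, while the other oxamate libraries were at vehicle level. Against vehicle, Nfe2l2 fell by 22.7% with both compounds (log2 fold change -0.37, SE 0.116, adjusted p = 0.029 by edgeR's quasi-likelihood test). Against oxamate alone the log2 fold change was -0.31 (SE 0.117, adjusted p = 0.0959), and between oxamate and vehicle it was -0.06 (95% interval -0.30 to 0.18, adjusted p = 0.857). Leaving out any 1 of vehicle library 2, vehicle library 3 or the libraries with both compounds took the call against vehicle away, with adjusted p between 0.0548 and 0.202, and without vehicle library 3 the log2 fold change was -0.26.

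Keap1, the adaptor that targets NRF2 for degradation, had 2073, 1884 and 2058 normalized read counts with vehicle, 2592, 2195 and 2150 under oxamate, and 2481, 2543 and 2470 with both compounds. Every library of either treated group was above every vehicle library. The treated groups overlapped each other through oxamate library 4. With both compounds Keap1 was 1.23-fold higher than with vehicle (log2 fold change 0.30, SE 0.0767, adjusted p = 0.00903), and this call was kept in 8 of 9 fits with 1 library left out (adjusted p = 0.0556 without vehicle library 2). With oxamate alone the log2 fold change was 0.21 (SE 0.0767, adjusted p = 0.13), and that of octyl-L2HG added to oxamate was 0.08 (95% interval -0.08 to 0.24, adjusted p = 0.575). Of the 50-base stretches of the Keap1 transcripts, 7.78% also occur in Gm16754, an annotated gene on the opposite strand, and the strand setting of the counting was not stated. The ratio of Keap1 to Nfe2l2 normalized read counts within a library was 4.34 ± 0.677 (SD, n = 3) with vehicle, 5.35 ± 1.62 under oxamate and 6.83 ± 0.473 with both compounds. The ratio with both compounds was higher than with vehicle in all 3 libraries (two-sided exact permutation p = 0.1, adjusted p = 0.2 over 6 comparisons of ratios), and 0.1 is the smallest p that 3 libraries against 3 can give.

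**Figure D2:**
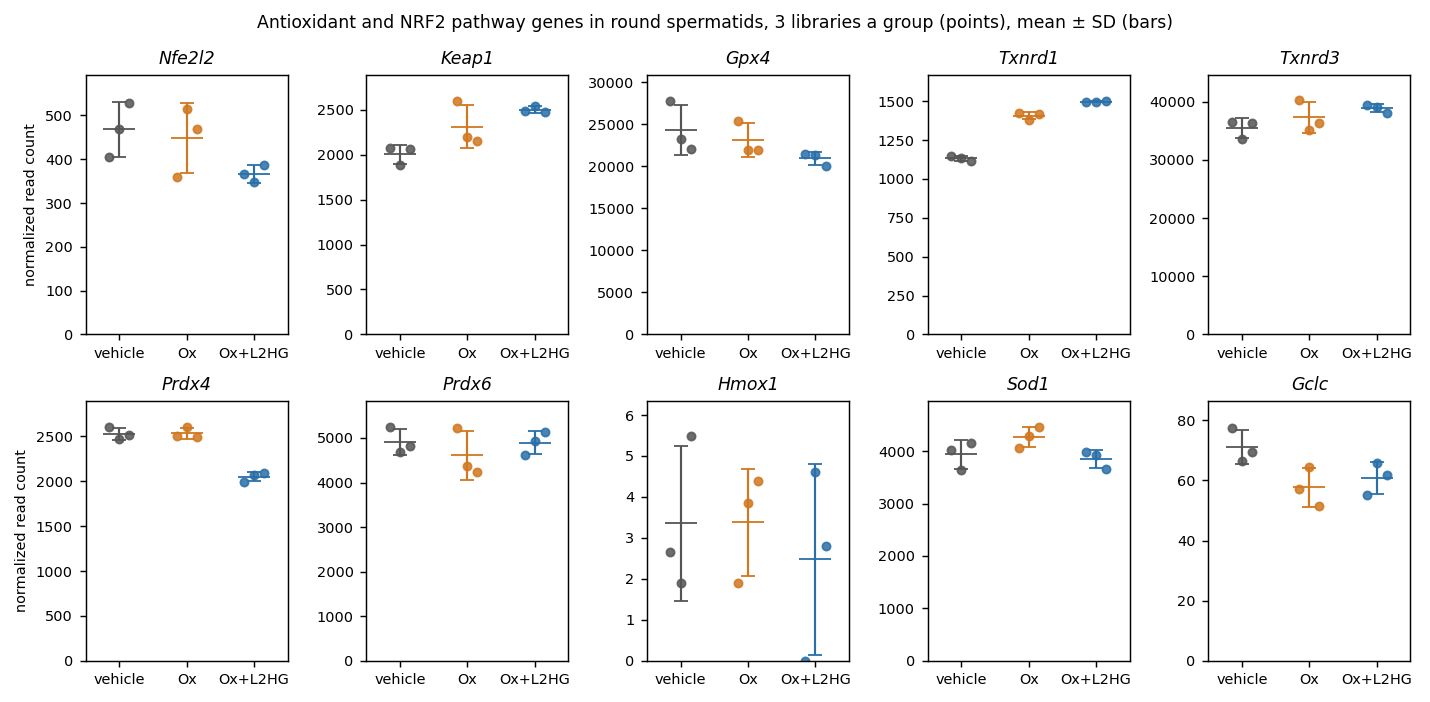
Normalized read count (y axis, from 0) of each of the 10 genes in the vehicle, oxamate (Ox) and oxamate with octyl-L2HG (Ox+L2HG) groups, with 1 point per library and bars for mean ± SD. Txnrd1 stepped up between vehicle and both treated groups, Prdx4 was lower in the libraries with both compounds than in all others, and Hmox1 stayed under 6 in every library.

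The thioredoxin reductases return oxidised thioredoxin to its active form, TXNRD1 in the cytosol of most cells. Txnrd1 had 1150, 1134 and 1118 normalized read counts with vehicle, 1423, 1379 and 1416 under oxamate, and 1497, 1496 and 1501 with both compounds. The 3 groups did not overlap, and the libraries of each lay close together, with SDs of 15.8, 23.7 and 2.33. Oxamate raised Txnrd1 1.24-fold (log2 fold change 0.31, SE 0.0674, adjusted p = 0.00627). With both compounds it was 1.30-fold higher than with vehicle (log2 fold change 0.38, SE 0.0674, adjusted p = 0.000352). Although the libraries with both compounds lay above those with oxamate, that difference was not called (log2 fold change 0.07, 95% interval -0.07 to 0.20, adjusted p = 0.631). The test draws each gene's spread partly from the other genes, not from these libraries alone. Both calls held in all 16 alternative fits. Without oxamate library 4 the log2 fold change with oxamate was 0.30 (adjusted p = 0.00209).

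Txnrd3 was one of the most abundant transcripts of the set, with 36609, 33544 and 36433 normalized read counts with vehicle, 40287, 35231 and 36405 under oxamate, and 39464, 39035 and 38129 with both compounds. The libraries with both compounds were above all vehicle libraries, while those with oxamate spanned both groups. No comparison was called: the log2 fold changes were 0.08 with oxamate (95% interval -0.06 to 0.21, adjusted p = 0.608), 0.03 with octyl-L2HG added (-0.10 to 0.17, adjusted p = 0.823) and 0.11 with both against vehicle (-0.02 to 0.24, adjusted p = 0.274). Set against Txnrd1, the ratio of Txnrd3 to Txnrd1 normalized read counts went from 31.3 ± 1.57 (SD, n = 3) with vehicle to 26.5 ± 1.55 with oxamate and 25.9 ± 0.491 with both compounds. The ratio was lower than with vehicle in every library of either treated group (two-sided exact permutation p = 0.1, the smallest possible, adjusted p = 0.2 for each). It differed by 0.565 between the treated groups (exact permutation p = 0.8).

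Peroxiredoxins reduce hydrogen peroxide with a reactive cysteine. Prdx4, whose product works in the endoplasmic reticulum and the secretory pathway, had 2603, 2468 and 2512 normalized read counts with vehicle, 2510, 2602 and 2490 under oxamate, and 1993, 2071 and 2095 with both compounds. The vehicle and oxamate libraries were interleaved, and all 6 were above every library with octyl-L2HG. Prdx4 fell by 20.4% when octyl-L2HG was added to oxamate (log2 fold change -0.33, SE 0.0654, adjusted p = 0.00217) and by 20.0% against vehicle (log2 fold change -0.32, SE 0.0653, adjusted p = 0.00126). With oxamate alone the log2 fold change was 0.01 (95% interval -0.13 to 0.14, adjusted p = 0.972). Both calls held in all 16 alternative fits, with log2 fold changes of -0.37 to -0.27 against oxamate and -0.38 to -0.24 against vehicle.

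Prdx6 encodes the peroxiredoxin with a single catalytic cysteine, which also acts on phospholipids. Its normalized read counts were 5244, 4675 and 4817 with vehicle, 5232, 4366 and 4229 under oxamate, and 4612, 4936 and 5137 with both compounds. The 3 groups overlapped, with oxamate library 4 next to the highest vehicle library. The log2 fold changes were -0.09 (95% interval -0.25 to 0.08, adjusted p = 0.647), 0.06 (-0.11 to 0.23, adjusted p = 0.727) and -0.03 (-0.19 to 0.14, adjusted p = 0.877) in the order of the comparisons above. Without oxamate library 4, Prdx6 was called lower with oxamate than with vehicle (log2 fold change -0.19, adjusted p = 0.048). Prdx6b, the close relative of Prdx6 that is listed as a gene of its own, was more abundant in these cells, at 22240 ± 719 (SD, n = 3), 20030 ± 324 and 22420 ± 446 normalized read counts for vehicle, oxamate and both compounds, and was not called either (adjusted p = 0.187 with oxamate, 0.157 with octyl-L2HG added). Only 0.136% of the 50-base stretches of the Prdx6 transcripts occur in Prdx6b.

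Gpx4 had 27744, 23244 and 22130 normalized read counts with vehicle, 25457, 21918 and 21996 under oxamate, and 21534, 21313 and 20056 with both compounds. All libraries with both compounds were below all others, by a narrow margin from the nearest, and vehicle library 1 was the highest of the 9. Gpx4 fell by 15.3% with both compounds against vehicle (log2 fold change -0.24, SE 0.0797, adjusted p = 0.0401). The log2 fold change was -0.07 with oxamate (95% interval -0.24 to 0.09, adjusted p = 0.718) and -0.17 with octyl-L2HG added to oxamate (-0.33 to -0.0024, adjusted p = 0.203). The call against vehicle was lost in 9 of 16 alternative fits. It was lost with DESeq2 (adjusted p = 0.0598), without vehicle library 1 (log2 fold change -0.14, adjusted p = 0.266), without vehicle library 2 or any 1 of the libraries with both compounds (adjusted p from 0.0595 to 0.156), and when the relation of counts with transcript length was removed (log2 fold change -0.12, adjusted p = 0.313). In addition, 34.7% of the 50-base stretches of the Gpx4 transcripts also occur in the pseudogene Gpx4-ps2, and how the counting treated reads that fit both places was not stated, so the Gpx4 level itself is uncertain.

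Sod1 encodes the copper and zinc superoxide dismutase, which turns superoxide into hydrogen peroxide. It had 4026, 3633 and 4155 normalized read counts with vehicle, 4062, 4294 and 4456 under oxamate, and 3990, 3918 and 3657 with both compounds. The oxamate libraries were above all 3 libraries with octyl-L2HG, while the vehicle libraries overlapped both groups. The drop with octyl-L2HG did not pass the test (log2 fold change -0.17, SE 0.0677, adjusted p = 0.108), but passed it without oxamate library 4 (log2 fold change -0.20, adjusted p = 0.0191). The log2 fold changes of oxamate (0.12, adjusted p = 0.381) and of both compounds against vehicle (-0.05, adjusted p = 0.667) were not called.

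Gclc, the catalytic subunit of the enzyme that starts glutathione synthesis, was scarce, with 77.3, 66.3 and 69.6 normalized read counts with vehicle, 57.2, 64.5 and 51.5 under oxamate, and 55.0, 65.7 and 61.8 with both compounds. All 6 treated libraries were below the 3 vehicle libraries, the closest pair being 65.7 and 66.3. The log2 fold changes against vehicle were -0.29 with oxamate (95% interval -0.61 to 0.03, adjusted p = 0.343) and -0.25 with both compounds (-0.57 to 0.07, adjusted p = 0.306), and neither was called at this depth. Hmox1, the inducible heme oxygenase that is a much used readout of NRF2 activity, was near the limit of detection: its raw counts were 3, 2 and 6 with vehicle, 2, 4 and 4 under oxamate, and 0, 4 and 3 with both compounds. The groups overlapped, and with so few counts the 95% interval of the log2 fold change with oxamate ran from -1.42 to 1.41, so that a doubling was not detectable.

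Per kilobase of annotated exon, the members spanned a wide range with vehicle. Gpx4 led at 14140 ± 1720 normalized read counts per kb (SD, n = 3), rank 96 of the 25027 tested genes with a length, followed by Txnrd3 at 12530 ± 607 (rank 122). These neighbours overlapped with vehicle, where Gpx4 ranged from 12840 to 16090 and Txnrd3 from 11830 to 12910. With both compounds the order was turned, with Gpx4 at 11630 to 12490 per kb and Txnrd3 at 13440 to 13920. Prdx4 (1200 ± 32.8 per kb) came next with vehicle, then Prdx6 (1022 ± 61.6) and Sod1 (991.9 ± 68.5), of which Prdx6 and Sod1 overlapped. Below them were Keap1 (427.2 ± 22.4), Txnrd1 (160.1 ± 2.22), Nfe2l2 (123.3 ± 16.4), Gclc (18.9 ± 1.49) and Hmox1 (1.91 ± 1.08), none of which overlapped its neighbours. With both compounds Prdx4 (975 ± 25.3 per kb) was no longer apart from Prdx6 (1019 ± 55.1) and Sod1 (971 ± 44.2). Per kb, Txnrd3 was 78.3 ± 3.92 times as abundant as Txnrd1 with vehicle and 64.9 ± 1.23 times with both compounds. The lengths are unions of all annotated exons of GENCODE M21, which overstate the usual transcript of genes with retained introns and so lower their level per kb.

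Fold changes over the whole table rose with exonic length. The Spearman correlation across 10696 genes with a mean normalized read count of at least 100 was 0.312 with oxamate, 0.171 with octyl-L2HG added and 0.348 with both compounds against vehicle, as a description, since genes are not replicates and all share the same libraries. Among the tenth of these genes with exons of 1.11 to 1.75 kb, where Gpx4 lies (1.72 kb), the median log2 fold change with both compounds against vehicle was -0.09. For 5.89 to 7.40 kb, where Txnrd1 lies (7.09 kb), it was 0.11. Once this trend was removed, Txnrd1 was still called with oxamate (log2 fold change 0.27, adjusted p = 0.0211) and with both compounds (0.34, adjusted p = 0.00104). Prdx4, at 2.11 kb, was still called against oxamate (-0.27, adjusted p = 0.00741) and against vehicle (-0.24, adjusted p = 0.0117). Keap1 (0.28, adjusted p = 0.00962) and Nfe2l2 (-0.37, adjusted p = 0.039) were also still called with both compounds against vehicle, and Gpx4 was not. The trend was removed after it had been seen in the data.

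**Figure D3:**
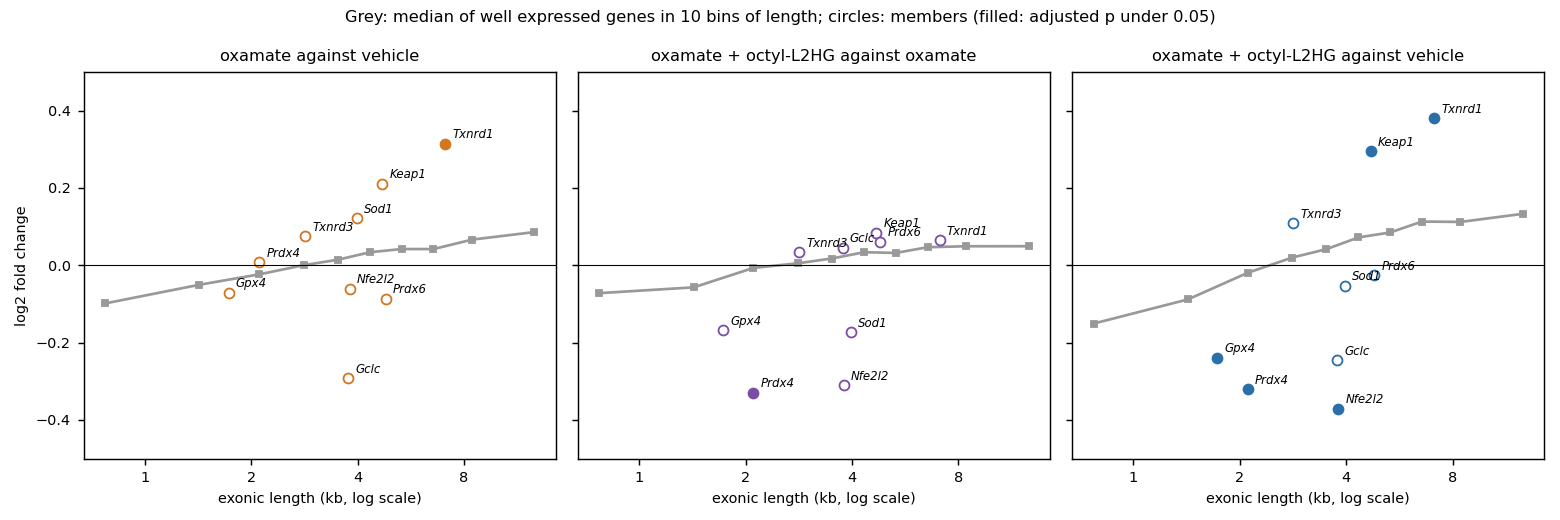
Log2 fold change (y axis) against exonic length in kb (x axis, log scale) for 9 of the 10 genes in the 3 comparisons, with the median of well expressed genes in 10 bins of length in grey. Filled circles passed an adjusted p of 0.05. With both compounds against vehicle, Txnrd1 and Keap1 lie above the grey line and Prdx4, Gpx4 and Nfe2l2 below it.

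Every call reported above for the 10 genes held without oxamate library 4, and further ones were added. Without it, a difference among the groups was called for 7 of the 10 genes in place of 3: Txnrd1, Prdx4, Keap1, Nfe2l2 (adjusted p = 0.000495), Gpx4 (adjusted p = 0.00801), Sod1 (adjusted p = 0.0309) and Prdx6 (adjusted p = 0.0405). The number of all genes called for such a difference went from 4974 to 7328 (29.7% of those tested without library 4). Against oxamate, 4 of the 10 genes were then called when octyl-L2HG was added: Prdx4 as before, Nfe2l2 lower (log2 fold change -0.44, adjusted p = 0.000992), Sod1 lower, and Keap1 higher (log2 fold change 0.18, adjusted p = 0.0436). Of all genes tested without library 4, 6.38% were raised and 11.5% lowered in that comparison, 4415 in all where 2823 were called with it. No label marks library 4 as different, and it was kept in all other values.

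**Figure D4:**
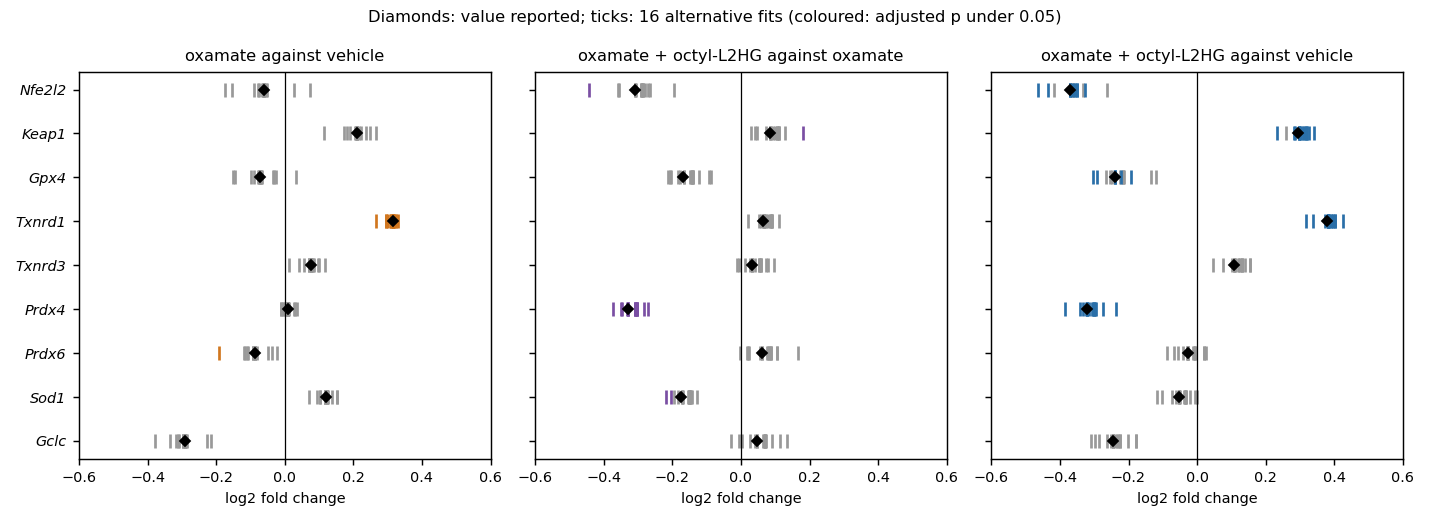
Log2 fold change (x axis) of 9 of the 10 genes in the 3 comparisons, as reported (black diamonds) and in 16 alternative fits (ticks, in colour where the adjusted p was under 0.05). Txnrd1 and Prdx4 were called in every fit of the comparisons in which they are reported as called, and the ticks of Gpx4, Nfe2l2 and Keap1 with both compounds against vehicle are partly grey, 9, 5 and 1 of the 16.

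The rest of the pathway was taken from lists of NRF2 regulators and targets, glutathione, thioredoxin and peroxiredoxin genes, superoxide and hydrogen peroxide enzymes, heme and iron handling, selenoprotein synthesis and ferroptosis control, 135 genes in all, of which 120 were tested. With oxamate, 6 of the 120 rose and 0 fell (7 fell at an unadjusted p under 0.05, 0 with DESeq2). With octyl-L2HG added, 4 rose and 11 fell, and with both compounds against vehicle 8 rose and 10 fell. DESeq2 gave 7 raised and 7 lowered with octyl-L2HG added, and 10 raised and 10 lowered against vehicle. Of all genes it called 1258 raised and 1627 lowered with octyl-L2HG added, and 2161 and 2017 against vehicle. The excess of falls in the lists was thus not kept, and the balance in the whole table also moved with the test. As shares, the edgeR counts are 5% and 0%, 3.33% and 9.17%, and 6.67% and 8.33%, near those of all genes tested given above. The median log2 fold changes of the 120 genes were -0.03, -0.01 and -0.03.

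Among 16 regulators of NRF2, 1 rose with oxamate, 1 rose and 2 fell with octyl-L2HG added, and 2 rose (Nfe2l1 and Palb2) and 1 fell with both compounds against vehicle. These were 6.25% raised with oxamate (3.97% of all genes tested), 6.25% raised and 12.5% lowered with octyl-L2HG added (3.18% and 8.06%), and 12.5% and 6.25% against vehicle (7.48% and 10.6%). DESeq2 called 1 raised and 1 lowered with octyl-L2HG added, and the same numbers as edgeR in the other comparisons. Bach2, a repressor that competes at antioxidant response elements, went from 409.2 ± 25.0 (SD, n = 3) normalized read counts with vehicle to 509.4 ± 37.9 with oxamate (log2 fold change 0.32, adjusted p = 0.0319) and back to 429.3 ± 21.3 with octyl-L2HG (-0.28 against oxamate, adjusted p = 0.0451). Gsk3b, a kinase that marks NRF2 for degradation, fell with octyl-L2HG (-0.32 against oxamate, adjusted p = 0.00189, and -0.39 against vehicle, adjusted p = 9.94e-05). Nfe2l1, which encodes a factor related to NRF2, rose (0.26 against oxamate, adjusted p = 0.0444, and 0.41 against vehicle, adjusted p = 0.00131).

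Of 23 tested NRF2 targets, 2 rose with oxamate (Abcc4 and Txn1), 5 fell with octyl-L2HG added (Srxn1, Gsr, Abcc4, Osgin1 and Txn1) and 3 fell with both compounds against vehicle (Srxn1, Gsr and Osgin1). The raised share with oxamate was 8.7% (3.97% of all genes), and the lowered shares were 21.7% with octyl-L2HG added (8.06% of all genes) and 13.0% against vehicle (10.6% of all genes). Of these called targets, Txn1, Gsr and Abcc4 had means under 100 normalized read counts (9.25, 81.0 and 93.9). The lists share genes: Gsr is counted again below among glutathione genes, and Srxn1 and Txn1 among thioredoxin and peroxiredoxin genes. DESeq2 called 1 raised with oxamate, 3 lowered with octyl-L2HG added and, as edgeR did, 3 lowered against vehicle. The count of raised targets was 0 in the latter comparisons, by DESeq2 too, with 0 and 1 at an unadjusted p under 0.05. Srxn1, whose product repairs over-oxidised peroxiredoxins, was at 691.4 ± 8.32 normalized read counts with vehicle, 670.9 ± 34.5 under oxamate and 523.9 ± 11.3 with both compounds (log2 fold change -0.38 against oxamate, adjusted p = 0.00255). Its libraries with octyl-L2HG, at 511 to 531.7, were below all others, as were those of Prdx4. Osgin1, an oxidative stress response gene, fell as well (-0.25 against oxamate, adjusted p = 0.035, and -0.41 against vehicle, adjusted p = 0.000405). Nqo1 and Slc7a11, targets often used as readouts, were at means of 13.2 and 38.8, and Gclm, the modifier subunit partner of Gclc, was at 675.8. None of these 3 was called in any comparison, and they were chosen for naming after their values were seen, as were the genes given in brackets without values.

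Of 32 tested glutathione genes, 1 rose with oxamate (Chac1), 3 fell with octyl-L2HG added (Gsr, Chac1 and Mgst2), and 2 rose (Chac1 and Ggt7) and 5 fell (Gsr, Oplah, Glrx2, Mgst2 and Mgst3) with both compounds against vehicle. The last are 6.25% raised and 15.6% lowered, where 7.48% and 10.6% of all genes were, and the 3 that fell with octyl-L2HG added are 9.38%, where 8.06% of all genes fell. The 1 that rose with oxamate is 3.12%, where 3.97% of all genes rose. DESeq2 called 1 raised and 2 lowered with octyl-L2HG added, and 3 raised and 5 lowered with both compounds against vehicle. Chac1, which breaks glutathione down, had the largest change of the listed genes with a mean of at least 100, from 68.0 ± 6.58 normalized read counts with vehicle to 153.6 ± 1.61 with oxamate (log2 fold change 1.18, adjusted p = 1.08e-05). With octyl-L2HG it came down to 118.8 ± 15.1 (-0.40 against oxamate, adjusted p = 0.0378) and stayed above vehicle (0.77, adjusted p = 0.000349). Oplah, a glutathione cycle enzyme (-0.36, adjusted p = 0.00731), and Mgst3, a microsomal glutathione transferase (-0.33, adjusted p = 0.021), fell with both compounds against vehicle.

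Of 25 thioredoxin and peroxiredoxin genes, 2 rose with oxamate (Txn1 and Sesn2). With octyl-L2HG added, 3 rose (Msrb3, Nme8 and Sesn3) and 3 fell (Srxn1, Txndc8 and Txn1), and with both compounds against vehicle 3 rose (Msrb3, Sesn2 and Sesn3) and 3 fell (Srxn1, Prdx5 and Txndc8). The shares were 8% raised with oxamate (3.97% of all genes tested), and 12% in each direction both with octyl-L2HG added (3.18% raised and 8.06% lowered of all genes) and against vehicle (7.48% and 10.6%). DESeq2 called 1 raised with oxamate, 4 raised and 2 lowered with octyl-L2HG added, and 3 in each direction against vehicle. Msrb3, which repairs oxidised methionine, rose to 2558 ± 95.7 normalized read counts with both compounds from 1623 ± 51.0 with vehicle and 1789 ± 13.8 with oxamate (log2 fold change 0.64 against vehicle, adjusted p = 9.23e-07, and 0.49 against oxamate, adjusted p = 5.32e-05). Sesn2, a stress-induced sestrin, rose with oxamate (0.42, adjusted p = 0.0437) and with both compounds (0.57, adjusted p = 0.00171), and Txndc8, a thioredoxin of spermatids, fell with octyl-L2HG (-0.26, adjusted p = 0.0112). Among 14 heme and iron genes, only Pcbp1, an RNA-binding protein that also carries iron, was called by edgeR, rising 0.51 on the log2 scale with oxamate (adjusted p = 0.000661) and 0.32 with both compounds (adjusted p = 0.0119). That is 7.14% of the list each time, where 3.97% and 7.48% of all genes tested rose, and DESeq2 also called 1 gene of the list raised with octyl-L2HG added. Mboat2, a phospholipid acyltransferase on the list of ferroptosis control, fell with octyl-L2HG added (-0.28, adjusted p = 0.0255), as 1 of 9 tested there (11.1%, against 8.06% of all genes). The 8 tested selenoprotein synthesis genes and 3 superoxide and hydrogen peroxide enzymes had 0 calls in every comparison by edgeR. At an unadjusted p under 0.05, the former had at most 1 in either direction and the latter 1, raised with oxamate, and DESeq2 called 1 selenoprotein synthesis gene raised with both compounds.

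**Figure D5:**
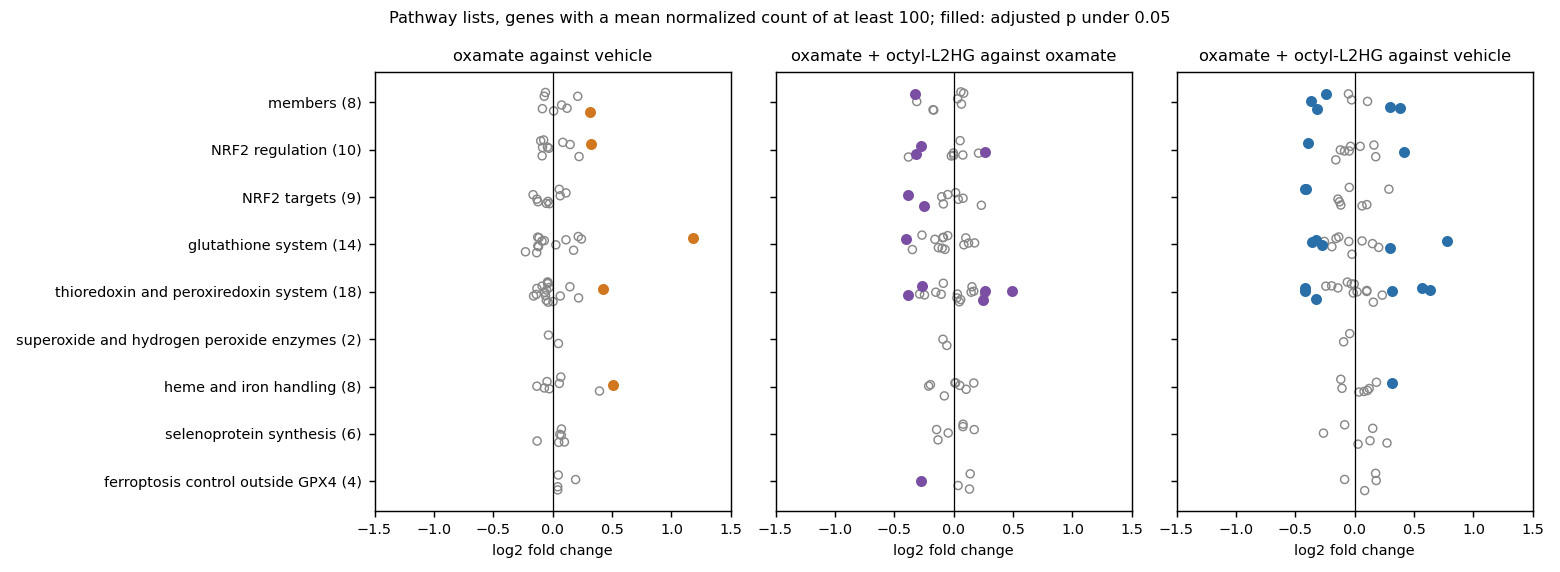
Log2 fold change (x axis) of each gene with a mean normalized read count of at least 100 in the lists named at the left (number of genes in brackets), for the 3 comparisons. Filled circles passed an adjusted p of 0.05 and open circles did not. Chac1, at 1.18 with oxamate, lies farthest to the right.

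Across the 9 libraries, the patterns most like that of Nfe2l2 among 10714 genes with a mean normalized read count of at least 100 were those of Gm42923 (Pearson r of log2 CPM 0.984), 4933404I11Rik (0.981) and Evi5 (0.979). For Txnrd1 they were Dennd3 (0.990), Inafm2 (0.986) and Calu (0.986). These correlations describe 3 groups of 3 libraries, which the points share.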

How the data were processed

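Poly(A)-selected stranded RNA-seq of RS was analysed in 9 libraries, 3 per group, grouped by the treatment in the labels. According to the submitters' processing notes and the methods, the authors trimmed reads with cutadapt 2.10, aligned them with TopHat2 2.1.1 to the mouse genome and counted them per gene with HTSeq 2.01. The notes list GRCm39 and WBcel235, a worm build, while the methods write the mouse build with a human prefix, and the gene IDs are those of mouse Ensembl genes. The deposited table holds these raw counts, and a deposited normalized signal, the count divided by the library's DESeq2 1.36.0 size factor (0.867 to 1.125). The strand setting and the treatment of multiply mapped reads were not given in the sources used here. No column was left unused, and 49164 listed genes had counts.

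Raw counts of the 25128 genes with at least 10 counts in all were fitted with edgeR 4.0.16 in R 4.3.3 (TMM, glmQLFit with robust estimation, all 9 libraries, threshold 0.05 after Benjamini-Hochberg adjustment over all genes tested). The code was tested on simulated data. Alternatives were DESeq2 1.42.0, its size factors, total counts, no filter, filterByExpr, only the 2 groups compared, each library left out, and, chosen after seeing the data, removal of the trend with exonic length (lowess span 0.3). Values in the text are deposited normalized read counts, and fold changes are from edgeR. Exon lengths and shared 50-base stretches came from GENCODE M21 (GRCm38), matched by gene ID, and promoters from RefSeq (GRCm38.p6), matched by symbol. The genes described and the pathway lists were chosen with earlier results of these data known. From each list, at most the 3 largest called changes per comparison among genes with a mean of at least 100 were named. Intervals and counts cover the spread between libraries only.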

Additional observations from a re-analysis of the deposited data

How the results depend on the processing

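No paired analysis was possible because the replicate numbers run from 1 to 9 and are shared by no groups. For log2 fold changes of single members, 407 values under the settings listed in the methods kept direction and side of the threshold, 14 lost and 5 gained the call and 21 changed sign, none of the last a called change. With the length trend removed, chosen after seeing the data, 28 of 30 kept both, 1 lost the call (Gpx4) and 1 changed sign. Sign changes without a library left out were Txnrd3 (-0.0107) with octyl-L2HG added and Prdx4 (-0.0105) with oxamate under total counts, Prdx6 (0.0193) with both compounds against vehicle without a filter, and Hmox1 with oxamate under DESeq2 (0.00050) and with the length trend removed (0.0330). With 1 library left out, ranges that crossed 0 with oxamate were -0.176 to 0.0743 (Nfe2l2), -0.151 to 0.0326 (Gpx4), -0.0109 to 0.0304 (Prdx4) and -0.265 to 0.513 (Hmox1). With octyl-L2HG added they were -0.00675 to 0.0977 (Txnrd3), -0.00207 to 0.168 (Prdx6), -1.09 to 0.0938 (Hmox1) and -0.0290 to 0.133 (Gclc). With both compounds against vehicle they were -0.0673 to 0.0244 (Prdx6) and -1.09 to 0.0975 (Hmox1).

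With oxamate, 1303 genes were called, and 745 when only the 2 groups compared were fitted. With 1 library left out the counts were 659 to 2288 with oxamate, 1396 to 4415 with octyl-L2HG added (2823 reported), 2970 to 6194 with both compounds against vehicle (4534 reported) and 3154 to 7328 for any difference (4974 reported). The 10 genes then gave 1 to 2, 1 to 4, 2 to 5 and 2 to 7 calls, and total counts gave 2 with octyl-L2HG added (Prdx4 and Sod1). The highest counts were those without oxamate library 4, and the lowest those without vehicle library 2 for oxamate and for the members against vehicle, and without library 7 for the other gene counts. The share of calls that were raised depended on the scaling. With octyl-L2HG added it was 28.3%, but 14.3% with total counts, 43.6% with DESeq2, 44.3% without a filter and 42.9% with the length trend removed. With both compounds against vehicle it was 41.4%, but 26.8%, 51.7%, 52.6% and 51.2%. The causes were not tested.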

Other observations

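Some pathway genes with a mean under 100 normalized read counts were called, and are named here after their values were seen. Gsr, the reductase that regenerates glutathione, was at 99.6 ± 9.95 (SD, n = 3) normalized read counts with vehicle, 87.8 ± 7.66 under oxamate and 55.6 ± 9.89 with oxamate and octyl-L2HG. It fell by 0.67 on the log2 scale when octyl-L2HG was added (adjusted p = 0.00898) and by 0.85 against vehicle (adjusted p = 0.000495). Mgst2, a microsomal glutathione transferase, was at 47.7 ± 5.58, 43.7 ± 11.5 and 25.3 ± 3.08, with log2 fold changes of -0.81 against oxamate (adjusted p = 0.0239) and -0.94 against vehicle (adjusted p = 0.00432). Abcc4, an efflux transporter, went up with oxamate from 72.5 ± 8.18 to 120.7 ± 16.6 (log2 fold change 0.74, adjusted p = 0.00298) and down to 88.5 ± 8.59 with octyl-L2HG (-0.47 against oxamate, adjusted p = 0.0362). Txn1, the cytosolic thioredoxin that TXNRD1 reduces, was listed at 5.78 ± 1.21, 15.7 ± 1.61 and 6.22 ± 1.98, and was called up with oxamate (1.42, adjusted p = 0.0164) and down with octyl-L2HG added (-1.31, adjusted p = 0.0179). Whether reads of Txn1 were lost to near-identical copies was not tested.

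Better expressed genes of the thioredoxin and peroxiredoxin list outside the naming rule were called with both compounds against vehicle. Prdx5, a mitochondrial and peroxisomal peroxiredoxin, was at 2778 ± 401 normalized read counts with vehicle, 2525 ± 276 under oxamate and 2108 ± 69.5 with both compounds (-0.42 against vehicle, adjusted p = 0.00266), and was not called against oxamate (-0.29, adjusted p = 0.0504). Sesn3, a sestrin, rose from 1812 ± 69.6 and 1888 ± 55.4 to 2282 ± 18.8 (0.31 against vehicle, adjusted p = 0.00179, and 0.25 against oxamate, adjusted p = 0.017). The adjusted p-values are edgeR's, taken over all genes tested after Benjamini and Hochberg.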
